A study of Mus musculus with 19 samples.

Results

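The STUS allele of PRDM9 is the same in both males compared here, and its hotspots were followed from the STUS/B6 hybrid to the STUS/Hum hybrid, where the other allele was exchanged. The comparison rests on 2 of the 19 samples of the series, 1 DMC1 library for each genotype. It covers the 17309 autosomal hotspots of STUS/B6 and the 10031 of STUS/Hum. A pair of hotspots was taken as shared when each was the nearest to the other in the other library and their centers lay at most 500 bp apart, which gave 3780 pairs. STUS hotspots are those that the authors attributed to the STUS allele. STUS/B6 had 8865 of them and STUS/Hum 3695.

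PRDM9 is a zinc-finger protein that binds DNA motifs in meiotic cells, trimethylates nearby histones and so places the double-strand breaks (DSBs) that start recombination. DMC1 then coats the resected single-stranded DNA, and sequencing of the DNA precipitated with DMC1 (SSDS) maps where breaks lie and how much DMC1 they hold. Over many generations a lineage loses the motifs of its own PRDM9, because the broken copy is repaired from the other homolog. This is called erosion, and in a hybrid it leaves the breaks of an allele mainly on the chromosome that came from the other lineage.

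Both libraries came from whole testis of adult F1 males between C57BL/6J (B6, Mus musculus domesticus) and STUS/Jpia (STUS, M. m. musculus). STUS/B6 carried the unmodified B6 allele of Prdm9 beside the STUS allele. STUS/Hum carried in its place a humanized allele (HUM), with the DNA-binding zinc fingers of the human PRDM9 B allele, inherited from a heterozygous B6 parent. The labels name B6 first in the cross of both libraries, whereas the study's text calls the hybrid STUSB6F1. At hotspots of the X chromosome, which a male has from its mother, the median share of reads from B6 was 100% in both libraries, so the X was that of B6. The number of mice pooled in a library is not given in the sources used here. DMC1 signal is called heat below, and no source used here says how it was scaled to depth. Heat summed to 1810327 over the autosomal hotspots of STUS/B6 and to 528883 over those of STUS/Hum, a ratio of 3.42. Changes are therefore given on shares, the heat of a hotspot in ppm (parts in 1000000) of its library's sum. The lowest share listed was 4.14 ppm for STUS/B6 and 14.2 ppm for STUS/Hum. With 1 library per genotype no test between the genotypes was possible. Wilson intervals (95%) describe counting error only, and ranges over the 19 autosomes describe spread inside a library.

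Sequences are shown for hotspots whose center lay in a promoter window of the RefSeq table (GRCm38.p6, the mm10 build of the tables; 250 bases before to 50 after a gene's start), since these are the positions for which sequence was given. The letters are those of the B6 reference strain, not of STUS. Centers lay in such a window for 14 HUM, 14 B6, 11 kept STUS and 19 not called STUS hotspots. The strongest of each of the first 3 kinds follow, with the 21 bases around the hotspot center in capitals. The HUM hotspot was called at Gm33047 with a heat of 172, and B6 reads made up 68.4%. The B6 hotspot at Gm31493 had a heat of 390 and 1.80% B6 reads, and STUS/Hum listed no hotspot there. The STUS hotspot at Gm51457 had a heat of 623 with 97.6% B6 reads in STUS/B6 and of 230 with 97.9% in STUS/Hum.
Gm33047, chr6:52579764-52580063, minus strand: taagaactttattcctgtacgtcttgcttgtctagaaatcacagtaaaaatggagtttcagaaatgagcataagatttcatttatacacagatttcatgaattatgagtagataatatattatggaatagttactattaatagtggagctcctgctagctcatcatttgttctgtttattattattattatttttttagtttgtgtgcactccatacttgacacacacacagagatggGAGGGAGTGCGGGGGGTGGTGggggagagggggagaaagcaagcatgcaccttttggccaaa
Gm31493, chr1:160025714-160026013, minus strand: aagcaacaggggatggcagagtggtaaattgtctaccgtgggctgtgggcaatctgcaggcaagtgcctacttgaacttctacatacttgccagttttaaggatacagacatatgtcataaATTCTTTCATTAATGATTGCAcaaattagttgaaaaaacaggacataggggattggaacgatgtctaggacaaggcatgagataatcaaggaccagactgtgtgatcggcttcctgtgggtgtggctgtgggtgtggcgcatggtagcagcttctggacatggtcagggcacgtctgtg
Gm51457, chr7:127076744-127077043, plus strand: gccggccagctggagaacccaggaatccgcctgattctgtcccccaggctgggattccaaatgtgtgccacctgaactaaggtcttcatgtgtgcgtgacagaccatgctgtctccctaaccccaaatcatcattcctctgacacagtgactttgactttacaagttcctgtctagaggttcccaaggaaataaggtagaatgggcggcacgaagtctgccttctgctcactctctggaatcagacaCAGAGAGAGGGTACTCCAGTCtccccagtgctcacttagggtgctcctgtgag

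The human 13-mer motif known for this PRDM9 allele, CCNCCNTNNCCNC, was searched on both strands of all windows. It was found in 6.29% of the 32851 promoter windows, in 2 of the 14 that held a HUM center, in 1 of the 11 with a kept STUS center and in none of the 14 with a B6 or the 19 with a not called STUS center. Both HUM windows follow, with the motif match in capitals. At Gm33727, where the heat was 44.4, the match lay on the minus strand of the window with its middle 73 bases from the hotspot center. At Gm33934, with a heat of 15.9, it lay on the plus strand 130 bases from the center. A match is a run of letters and was not tested as a binding site.
Gm33727, chr17:25518339-25518638, plus strand: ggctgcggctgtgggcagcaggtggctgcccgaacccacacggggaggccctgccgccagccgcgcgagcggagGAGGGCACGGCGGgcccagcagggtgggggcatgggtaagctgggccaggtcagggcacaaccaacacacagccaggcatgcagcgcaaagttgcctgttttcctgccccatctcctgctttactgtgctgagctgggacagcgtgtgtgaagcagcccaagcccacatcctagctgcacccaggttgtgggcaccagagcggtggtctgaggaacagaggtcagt
Gm33934, chr6:101271686-101271985, plus strand: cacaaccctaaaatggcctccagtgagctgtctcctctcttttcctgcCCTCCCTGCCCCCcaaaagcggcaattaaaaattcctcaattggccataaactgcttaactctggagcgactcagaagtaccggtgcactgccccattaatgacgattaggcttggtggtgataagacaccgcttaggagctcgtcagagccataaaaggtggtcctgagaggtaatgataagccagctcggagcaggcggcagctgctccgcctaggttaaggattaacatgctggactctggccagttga

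Of the 8865 STUS hotspots of STUS/B6, 3567 were kept in STUS/Hum and 5298 were not called there. The kept share was 40.2% (interval 39.2 to 41.3%; 31.6 to 47.1% over the autosomes), against 21.8% for all autosomal hotspots of STUS/B6. Kept hotspots were the strong ones, with a median heat of 156 against 25.5 at those not called. They held 80.0% of the heat of the allele (71.2 to 85.1% over the autosomes). The partner in STUS/Hum was attributed to STUS at 3479 of them and left unassigned (UNK) at 88. None of the STUS hotspots met a HUM hotspot within 500 bp. Attribution compared hotspots with those of other mice, so the lack of such pairs may follow from the labels, and nothing is read from it. The study inferred the STUS binding motif from hotspots that overlap between these libraries. Of the 3695 STUS hotspots of STUS/Hum, 3479 had a STUS and 67 an UNK partner in STUS/B6, so the attribution in STUS/Hum is tied to the pairing and the share was read only from STUS/B6 to STUS/Hum. Of the UNK hotspots of STUS/B6, 6.74% were kept. The STUS label in STUS/B6 may therefore also go with being shared, which was not tested.

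The kept share followed heat along an S-shaped course. With the STUS hotspots split into 10 bins of like number by their STUS/B6 heat, 2.26 to 3.04% were kept in the 3 lowest bins, up to a heat of 24.8. The share was 6.32% in bin 4, 14.1% in bin 5, 30.9% in bin 6 and 58.5% in bin 7, whose heat ran from 65.8 to 101. It reached 87.5% in bin 8, 97.9% in bin 9 and 99.0% in bin 10, where 878 of 887 hotspots were kept. At kept hotspots the STUS/Hum heat was 0.269 times that of STUS/B6 at the median. At that ratio, a STUS/B6 heat of up to 24.8 falls below the lowest heat listed in STUS/Hum. The low kept share in the 3 lowest bins therefore cannot tell lost hotspots from hotspots too weak to be listed. How far this limit also shapes the rise over the higher bins was not tested. STUS/Hum listed 955 hotspots (9.52%) with a heat under 15, and STUS/B6 listed 2373 (13.7%).

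**Figure D1:**
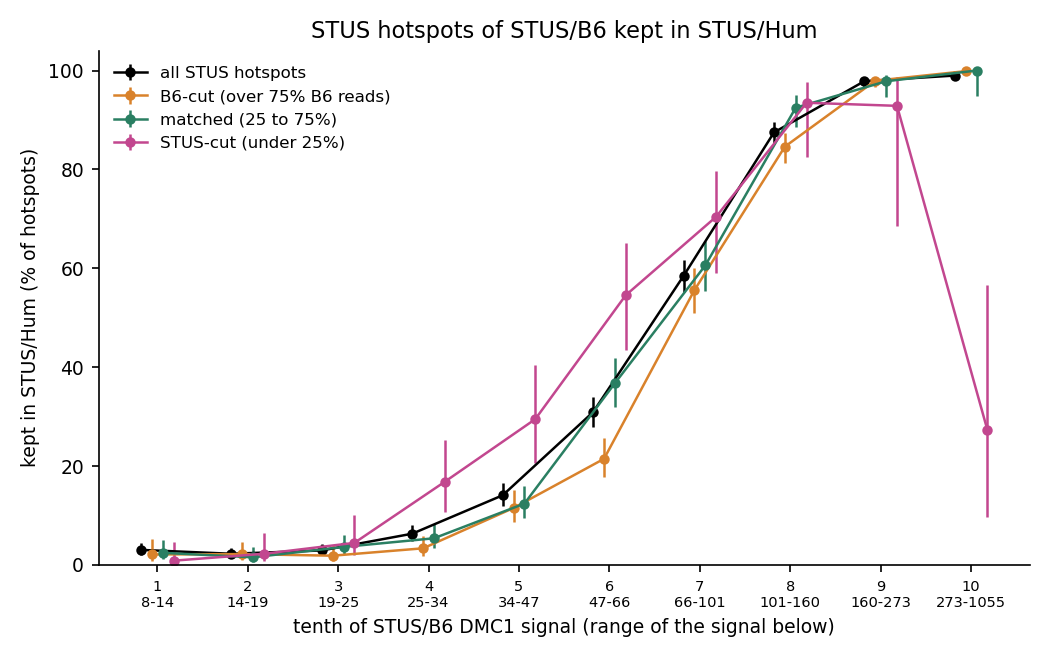
Percent of STUS hotspots of STUS/B6 that were kept in STUS/Hum (y axis) in 10 bins of STUS/B6 heat (x axis, with the range of each bin), for all of them and by homolog class; bars are 95% Wilson intervals for counting error. The share climbs from 3.04% in the lowest bin to 99.0% in the highest, where the STUS-cut class drops to 3 of 11.

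Hotspots were classed by the homolog of their DMC1 reads in STUS/B6, as the percent that carried B6 variants (B6 reads). They were matched at 25 to 75%, B6-cut above and STUS-cut below, and 743 had no fraction. Without regard to heat, 53.4% of the 4411 B6-cut hotspots were kept (interval 51.9 to 54.9%), 31.5% of the 2952 matched (29.9 to 33.2%), 26.4% of the 759 STUS-cut (23.3 to 29.6%) and 10.9% of those with no fraction (8.86 to 13.3%). Median heat had the same order, 86.3 for B6-cut, 37.9 for matched, 26.2 for STUS-cut and 15.6 for those with no fraction. Within each of bins 3 to 8 the order was the reverse, with the highest share for STUS-cut and the lowest for B6-cut hotspots. It varied in the other bins. Intervals of B6-cut and matched hotspots overlapped in bins 3, 4, 5 and 7. In bin 4 the shares were 3.36% for B6-cut, 5.39% for matched and 16.8% for STUS-cut, and in bin 7 55.6, 60.6 and 70.4%. In bin 2, 2.19% of B6-cut, 1.54% of matched and 2.26% of STUS-cut hotspots were kept, with overlapping intervals. In bin 6, 21.5% of B6-cut (interval 17.8 to 25.6%), 36.7% of matched (31.9 to 41.8%) and 54.5% of STUS-cut hotspots (43.5 to 65.2%) were kept. In bin 8 the shares were 84.6% for B6-cut (81.4 to 87.3%), 92.5% for matched (88.7 to 95.1%) and 93.5% for STUS-cut (82.5 to 97.8%). In bin 9 they were 97.9% for B6-cut, 97.8% for matched and 92.9% for STUS-cut, again with overlapping intervals. Averaged over the bins, the kept share of matched hotspots was 3.97 percentage points above that of B6-cut hotspots, and it was higher on 17 of the 19 autosomes (-2.65 to 10.6). Without bins it was 21.9 percentage points lower.

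In the strongest bin, STUS-cut hotspots stood apart. There, 801 of 802 B6-cut and 70 of 70 matched hotspots were kept, but 3 of 11 STUS-cut hotspots (27.3%, interval 9.75 to 56.6%). The 8 STUS-cut hotspots that were not called had a heat of 288 to 391 in STUS/B6. Their B6 reads ran from 0.226 to 8.32%. None of the 8 met a hotspot of the B6/SPRT library of B6SPRTF1 hybrids within 500 bp, and 0 of all 8865 STUS hotspots met one attributed to B6 there. That comparison cannot tell whose hotspots the 8 are. Attribution compared hotspots with those of other mice, so the count of 0 may follow from the labels. In addition, B6/SPRT males carry no STUS chromosomes. Whether these 8 belong to the STUS allele was not tested. One of them, at chr15:70387870, fell just outside the pairing limit, with a STUS hotspot of STUS/Hum (heat 176, 1.55% B6 reads) 502 bp away. The other 7 lay 7.86 to 153 kb from the nearest STUS/Hum hotspot.

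The 5 strongest kept hotspots were all B6-cut. The strongest, at chr15:7748612 and 30.3 kb from the pseudogene Gm19227, had a heat of 1055 in STUS/B6 (583 ppm) and 284 in STUS/Hum (537 ppm). The hotspot inside Cdk14, a cyclin-dependent kinase gene, at chr5:4964976 had 987 and 314 (545 and 593 ppm). That at chr16:88697485, 9.69 kb from 2310061N02Rik, had 986 and 369 (545 and 697 ppm). All 3 kept a B6 fraction above 99% in both libraries. At chr3:78201341, 65.8 kb from the pseudogene Gm6680, heat was 895 and 381 (494 and 720 ppm). At chr19:58234436, 1.15 kb from Gfra1, the gene of a receptor of GDNF, it was 889 and 354 (491 and 669 ppm). The share was thus higher in STUS/Hum at 4 of the 5.

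Of the 5 strongest that were not called, 4 were among the STUS-cut hotspots above. They lay at chr4:154782154, 55.2 kb from Ttc34 (heat 391, B6 reads 0.466%), at chr8:79283168 inside Mmaa (373, 0.522%), at chr18:17281281, 9.37 kb from the pseudogene Gm18928 (347, 8.32%), and at chr11:4629926 inside the long noncoding RNA gene Gm11961 (344, 0.226%). The remaining one, at chr8:13379658 and 1.21 kb from Tfdp1, was B6-cut with a heat of 371 and 99.5% B6 reads. A STUS hotspot of STUS/Hum with a heat of 170 and 99.6% B6 reads lay 508 bp from it. Few pairs lay near the limit. Of all kept hotspots 2439 had their partner within 100 bp and 19 had it between 400 and 500 bp, whereas 10 hotspots had a STUS/Hum center between 500 and 600 bp. The last pairs inside the limit lay 471, 474 and 478 bp apart, with STUS/B6 heats of 57.9, 238 and 70.1, and the first outside lay 502, 505 and 508 bp apart, with 329, 54.4 and 371.

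Without chromosome 18, which the table of gene starts does not cover, 61.8% of kept hotspots (interval 60.2 to 63.4%) and 58.3% of those not called (56.9 to 59.6%) lay inside a RefSeq gene, against 59.9% of all hotspots of STUS/B6. A gene start lay within 1 kb for 1.78% of kept (1.39 to 2.28%) and 1.82% of not called STUS hotspots (1.49 to 2.23%), against 2.19% of all hotspots of STUS/B6. The share inside a gene was 61.0% for B6 hotspots (interval 59.7 to 62.2%), against the same 59.9% of all hotspots of STUS/B6. It was 64.7% for HUM hotspots (interval 63.3 to 66.1%), against 61.7% of all hotspots of STUS/Hum.

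Kept STUS hotspots held 39.8% of all heat in STUS/B6, and the partners of the same hotspots held 38.8% in STUS/Hum. Not called STUS hotspots held 9.94% of the heat of STUS/B6. Any heat at their positions in STUS/Hum is unlisted and so enters no sum. In STUS/Hum, 216 STUS hotspots without a STUS partner held 1.44%. Of these, 67 had an UNK partner in STUS/B6 and held 0.767%. HUM hotspots held 49.5% of the heat in STUS/Hum and B6 hotspots 40.2% in STUS/B6. By class, B6-cut kept hotspots went from 31.8 to 30.3% of all heat, matched from 6.69 to 6.88%, STUS-cut from 0.937 to 1.16%, and those with no fraction from 0.353 to 0.434%.

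**Figure D2:**
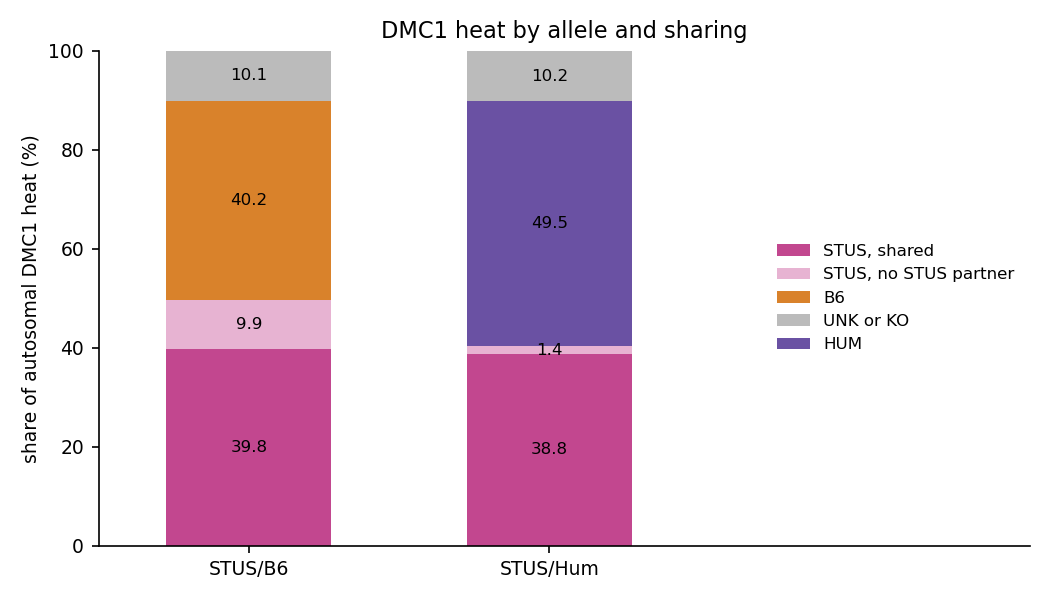
Share of autosomal DMC1 heat (y axis, percent) in STUS/B6 and STUS/Hum, stacked by allele. Dark pink marks STUS hotspots of STUS/B6 that are shared and their STUS/Hum partners, and grey the remaining UNK and KO. Light pink marks STUS hotspots with no partner in STUS/B6, but in STUS/Hum all STUS hotspots without a STUS partner, including 67 with an UNK partner. The shared STUS hotspots take 39.8 and 38.8%, and HUM takes 49.5% where B6 took 40.2%.

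Hotspot by hotspot, heat ranked alike in both libraries. Over the 3567 shared STUS hotspots Spearman's rho of heat was 0.871 and Pearson's r of log2 heat 0.839, as a description across hotspots that share their libraries. The log2 change of share, STUS/Hum over STUS/B6, had a median of -0.12 (quartiles -0.47 and 0.26) and ran from -2.22 to 5.03. Over all 3780 shared hotspots the median was -0.11. The share was higher in STUS/Hum at 40.8% of shared STUS hotspots. These values count against all heat of a library, of which the STUS allele held less in STUS/Hum. Counted against STUS heat alone, the median was 0.23, but the STUS heat of STUS/B6 includes the hotspots not called in STUS/Hum. Counted against heat at the 3780 pairs alone, it was -0.09.

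The share was at least 2-fold higher in STUS/Hum at 145 shared STUS hotspots (4.07%, against 6.53% of all shared hotspots) and at least 2-fold lower at 172 (4.82%, against 5.03%). Neither share was above that of all shared hotspots. Counted against STUS heat alone, 318 were at least 2-fold higher and 37 at least 2-fold lower, so the balance turns with the scale. A hotspot had to be called in STUS/Hum to enter, so those with the lowest STUS/B6 shares could only be seen when their share was higher. Of the 145, 41 had an UNK partner, although such partners made up 88 of the 3567 pairs. At the 88 the median change was 0.74 (quartiles 0.19 and 1.97), and at the 3479 with a STUS partner -0.13 (-0.48 and 0.24).

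The class of homolog went with the change. Among shared hotspots the median was -0.19 for the 2355 B6-cut (quartiles -0.53 and 0.15), -0.04 for the 931 matched (-0.38 and 0.37) and 0.32 for the 200 STUS-cut (-0.17 and 0.75). It was 0.51 for the 81 with no fraction (-0.12 and 1.31). The share was higher in STUS/Hum at 35.2% of B6-cut, 46.8% of matched and 66.5% of STUS-cut hotspots. The median of matched exceeded that of B6-cut hotspots on 18 of 19 autosomes (-0.02 to 0.35). When the class was taken from the STUS/Hum fraction, an alternative added after the data were seen, the medians were -0.18, -0.08 and 0.30.

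Since B6-cut hotspots are stronger, the shared hotspots were also split into 5 groups of like number by the product of both shares. In the lowest group the medians were -0.03 for B6-cut, 0.14 for matched and 0.50 for STUS-cut. In the middle one they were -0.37, -0.17 and 0.15, and in the highest 0.07, 0.22 and 0.63, the last from 3 hotspots. The order of the classes was the same in each of the 5. Taken over all classes, the median was 0.15 in the lowest, -0.33, -0.30 and -0.19 in the next 3, and 0.09 in the highest, where the quartiles were -0.19 and 0.35.

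**Figure D3:**
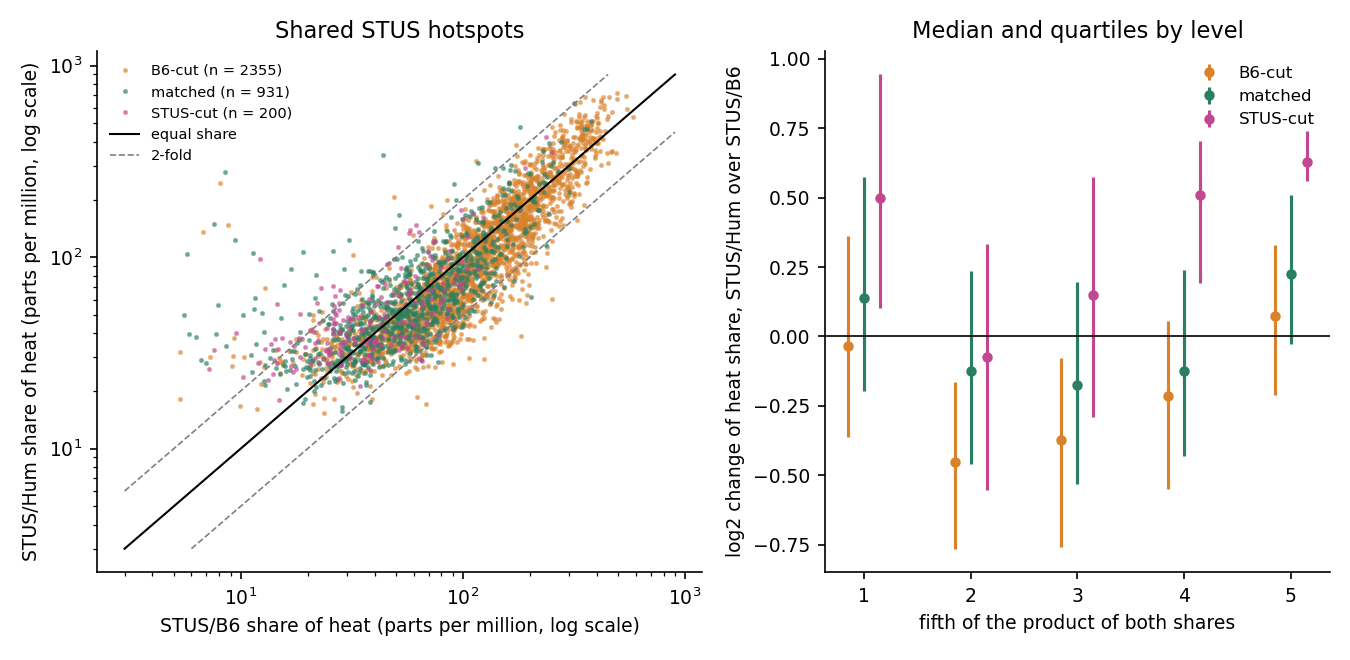
Left, share of heat of each shared STUS hotspot in STUS/B6 (x axis) and STUS/Hum (y axis), in ppm on log scales, colored by homolog class, with lines for equal shares and for 2-fold. Right, median and quartiles of the log2 change of share by class in 5 groups of like number ordered by the product of both shares; at every level STUS-cut lies above matched and matched above B6-cut.

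The largest changes were named among shared hotspots whose summed heat was at or above the median. The 4 largest increases all had an UNK partner. Inside Adcy3, an adenylyl cyclase gene that overlaps Cenpo here, at chr12:4211540, heat was 79.1 for STUS/B6 against 182 for STUS/Hum (43.7 and 343 ppm, 7.86-fold higher), and B6 reads went from 57.6 to 36.2%. At chr2:58433648, inside the noncoding LOC108168760, it was 88.2 and 109 (4.24-fold), and B6 reads went from 99.4 to 65.8%, with centers 425 bp apart. At chr19:54925310, 142 kb from Gpam, it was 207 and 167 (2.76-fold), with 99.7 and 61.2% B6 reads. Inside Lpin1, a phosphatidate phosphatase gene, at chr12:16604663, it was 165 and 127 (2.65-fold), with 57.1 and 36.3%. In each of the 4 the B6 fraction was over 20 percentage points lower in STUS/Hum. Whether the same allele made the break in both libraries was not tested.

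The 4 largest decreases were B6-cut in STUS/B6 and had a STUS partner at most 41 bp away. At chr1:186893248, 23.9 kb from the long noncoding RNA gene Gm39732, heat was 329 for STUS/B6 against 20.6 for STUS/Hum (4.67-fold lower in share). Inside Wif1, which encodes an inhibitor of WNT signalling, at chr10:121099678, it was 226 and 15.5 (4.25-fold). At chr3:151054408, 30.5 kb from Mir3963, it was 453 and 32.1 (4.13-fold), and at chr1:186018001, 69.7 kb from Lyplal1, 193 and 15.7 (3.60-fold). Of these 4 hotspots, 2 lie on chromosome 1.

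At most shared STUS hotspots a larger part of the reads came from the STUS chromosome in STUS/Hum. Over the 3355 shared STUS hotspots with a fraction in both libraries the B6 fraction was lower in STUS/Hum at 82.8%. B6-cut hotspots had a median of 98.9% B6 reads for STUS/B6 against 92.9% for STUS/Hum, and a median difference of -4.91 percentage points over 2296 hotspots. STUS-cut hotspots had the opposite difference, from 2.23 to 13.5% (196 hotspots). Matched hotspots had 55.6 and 45.5%, with a lower fraction in STUS/Hum at 663 of 863. In STUS/Hum 50 of the 863 were STUS-cut and 13 B6-cut. The class stayed the same for 90.9% of B6-cut, 92.7% of matched and 83.2% of STUS-cut hotspots. These classes were set by the STUS/B6 value, so some return toward the middle is built into them. With the class set by STUS/Hum instead, B6-cut hotspots still had 99.0 and 93.6%, and matched 58.8 and 50%. STUS-cut hotspots also kept their opposite difference, with 3.05 and 13.5% and a higher fraction in STUS/Hum at 138 of 214.

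The shift went with heat. Among B6-cut hotspots the median difference was -12.5 percentage points in the lowest of the 5 groups by share and -1.94 in the highest, where medians were 99.4 and 97.0%. On the X chromosome, present in 1 copy in a male, the B6 fraction of STUS hotspots averaged 99.9% over 347 hotspots in STUS/B6 and 99.3% over 178 in STUS/Hum, so the mean share of reads not assigned to B6 was 0.104 and 0.678%. Over all X hotspots that share averaged 0.799% (651 hotspots) and 1.28% (406), and at UNK hotspots 6.14 and 6.08%. The number of reads behind a fraction is unknown, and the part of low read numbers or of background reads in this shift was not tested.

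**Figure D4:**
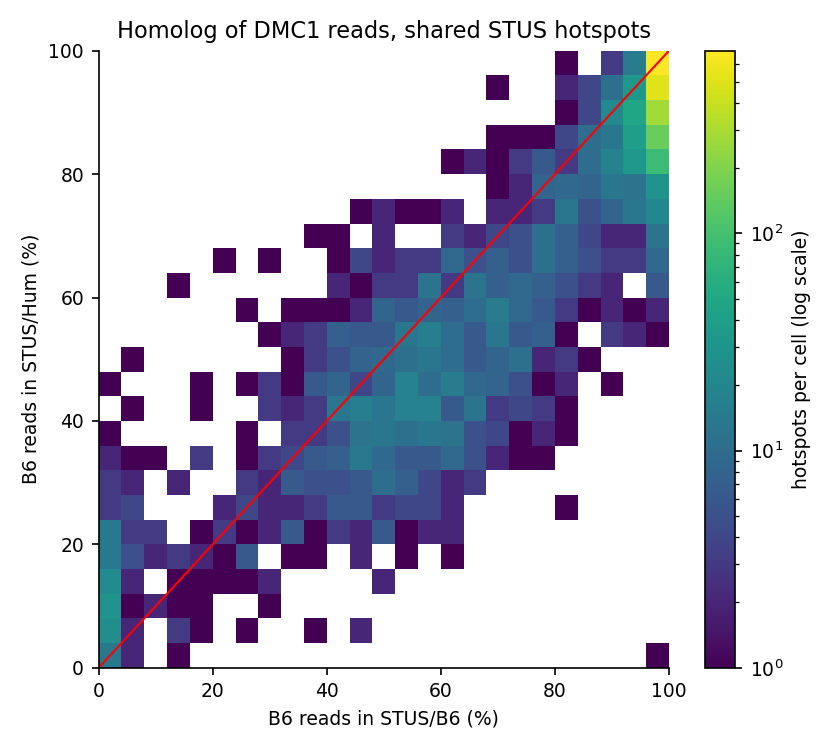
Percent of DMC1 reads from the B6 chromosome in STUS/B6 (x axis) and STUS/Hum (y axis) at 3355 shared STUS hotspots, as the number of hotspots per cell on a log color scale; the red line marks equal values. Most cells lie under the line, and the densest corner, near 99% in STUS/B6, spreads down in STUS/Hum.

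As labelled, few B6 and HUM hotspots shared a position. Of the 6115 B6 hotspots, 16 had a STUS/Hum hotspot at the position (0.262%, interval 0.161 to 0.425%), against 21.8% of all autosomal hotspots of STUS/B6. All 16 partners were HUM. They are 0.338% of the 4729 HUM hotspots (interval 0.208 to 0.549%) and held 0.288% of B6 heat and 0.380% of HUM heat. For STUS hotspots, whose allele both males carried, the share was 40.2%. Attribution compared hotspots with those of other mice, so a shared position could also be labelled otherwise. There were 86 UNK hotspots that met an UNK partner, and 67 UNK hotspots of STUS/B6 met a STUS one. How far the low count of B6 and HUM pairs follows from the labels was not tested.

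The homolog of the reads at these 16 varied. At chr4:32726909 a B6 hotspot with a heat of 22.2 lay 86 bp from a HUM hotspot with 376, and B6 reads were 50% and 45.8%. At chr12:33581344 heat was 47.4 and 114, with 66.7 and 46.2% B6 reads. At chr5:52295677 the B6 hotspot had a heat of 620 with 2.87% B6 reads, and the HUM hotspot 484 bp away had 48.4 with 95.6%. At chr6:30252545, 351 bp apart, heat was 426 and 25.4 with 0.612 and 29.9% B6 reads, and at chr17:7575460 it was 137 and 55.9 with 1.05 and 41.0%. In STUS/B6, 5 of the 15 with a fraction were STUS-cut and 8 matched, and in STUS/Hum 9 of 14 were matched.

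The typical HUM hotspot lay 111 kb from the nearest B6 hotspot at the median, and 6.75% lay within 10 kb. Leaving out the first 1000 bp, where calls within a library merge, 5.84% of HUM hotspots and 5.22% of the STUS hotspots of STUS/Hum had a B6 hotspot within 10 kb. On the scale of 5 Mb bins, B6 heat of STUS/B6 and HUM heat of STUS/Hum had Pearson's r of 0.553 and Spearman's rho of 0.573 over 498 bins. STUS heat in both libraries gave 0.80 and 0.82. Across libraries, HUM heat of STUS/Hum and STUS heat of STUS/B6 gave 0.503 and 0.503 over 498 bins, close to the values of B6 and HUM. In bins of 1 Mb, r was 0.249 for B6 and HUM and 0.234 for HUM and STUS of STUS/B6. HUM and STUS heat within STUS/Hum gave 0.303 and 0.320 over 497 bins, and B6 and STUS heat within STUS/B6 0.419 and 0.413 over 496. These are descriptions across bins that differ in length of usable sequence and share their libraries.

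Next come the nearest HUM and B6 hotspots over 500 bp apart, both with a heat above their allele's median. HUM and B6 hotspots at most 500 bp apart are among the shared pairs above. The distances below therefore start at the limit and do not show how close a HUM and a B6 hotspot could come. Inside Tlk2, which encodes a Tousled-like kinase, a HUM hotspot at chr11:105275693 (heat 58.3, 92.9% B6 reads) lay 517 bp from a B6 hotspot (221, 44.6%). Inside Bhmg1, the HUM hotspot at chr7:19104692 (72.2, 41.8%) lay 705 bp from a B6 hotspot of 222 with 1.59%. Inside Zfp451, at chr1:33764481, it had 60.2 and 46.5%, and the B6 hotspot 721 bp away 529 and 12.7%. Inside Sec23ip, at chr7:128780332, it had 41.6 and 36.2%, with 107 and 52.7% for the B6 hotspot 751 bp away.

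Of the 4 strongest B6 hotspots, 3 were STUS-cut and 1 was matched. The 4 strongest B6 hotspots lay inside Ankfn1 at chr11:89611917 (heat 1102, 41.6% B6 reads), at chr3:134982424, 17.0 kb from the pseudogene Gm4860 (1064, 0.524%), inside Tmc1, a gene of inner-ear hair cells, at chr19:20796501 (949, 0.554%), and at chr5:139598145, 49.97 kb from Uncx (937, 0.479%). Their nearest STUS/Hum hotspots were 77.4, 178, 107.5 and 37.4 kb away. The 4 strongest HUM hotspots were all matched. They lay over Gm30863 and Gm29590 at chr13:37510071 (473, 45.8%), inside Gm32543 at chr10:17565329 (460, 40.2%), inside Zcchc2 at chr1:106002504 (413, 46.7%) and inside Cfap54, a gene of cilia and flagella, at chr10:93007630 (408, 50.5%). Their nearest STUS/B6 hotspots were 23.5, 45.0, 86.3 and 231 kb away. Heat was spread more evenly over HUM than over B6 hotspots, with the strongest 10% holding 32.3 and 39.7% of the allele's heat, but STUS heat was likewise more even in STUS/Hum (33.5%) than in STUS/B6 (41.9%).

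By homolog, the classes held different shares of heat in the 2 libraries. Hotspots with no fraction held 2.28% of all heat in STUS/B6 and 5.41% in STUS/Hum. STUS-cut B6 hotspots held 29.5% of all heat in STUS/B6, and STUS-cut HUM hotspots 7.08% in STUS/Hum. Matched B6 hotspots held 8.03% and matched HUM hotspots 31.0%, a difference of 23.0 percentage points, while matched heat of STUS hotspots was 2.86 percentage points lower and that of UNK hotspots 1.47 higher. B6-cut heat over all alleles was 39.6 and 38.8%, made up of 36.4% STUS and 1.76% B6 in STUS/B6 and of 28.8% STUS and 8.52% HUM in STUS/Hum.

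The change at shared STUS hotspots differed between autosomes. The median log2 change ran from -0.51 on chromosome 19, -0.48 on 17, -0.46 on 10 and -0.43 on 18 to 0.09 on 2, 0.11 on 1 and 0.19 on 12. It was above 0 on 6 autosomes. The heat of whole autosomes moved as well, with chromosome 2 holding 6.99% of all heat in STUS/B6 and 8.17% in STUS/Hum, and chromosome 17 holding 4.10 and 3.54%. Over the 19 autosomes, the median change and the position of the last hotspot center, a stand-in for length, had Pearson's r of 0.57 and Spearman's rho of 0.48. The median change and the kept share had 0.81 and 0.72. Both are descriptions of 19 points from the same 2 libraries. HUM held a larger share of an autosome's heat than B6 had on 18 of 19 (up to 19.8 percentage points, on chromosome 18). Chromosome 12 was the exception, with 45.6% B6 and 44.4% HUM.

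**Figure D5:**
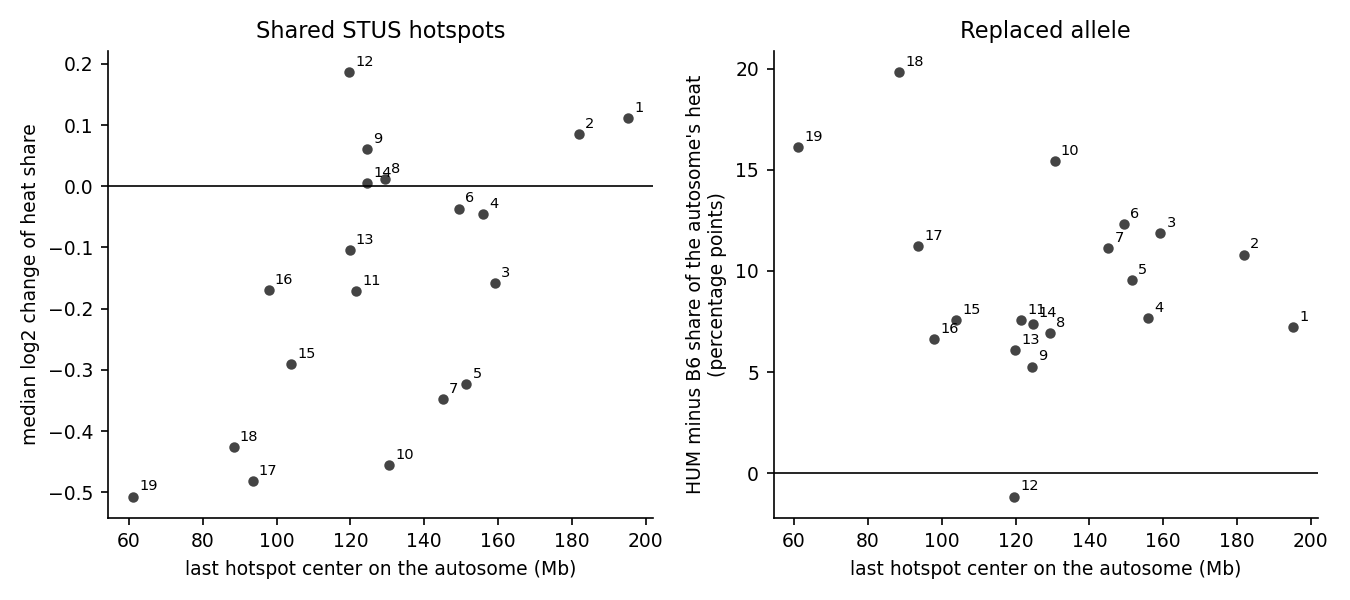
Each point is an autosome, placed by its last hotspot center (x axis, Mb) and, left, by the median log2 change of share at its shared STUS hotspots or, right, by the HUM share of its heat in STUS/Hum minus the B6 share in STUS/B6 (percentage points). Chromosomes 10, 17, 18 and 19 lie lowest on the left, and chromosome 12 alone lies under 0 on the right.

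Heat also differed along the autosomes, whose centromere lies at the low end of coordinates in the mouse. With each autosome cut into 5 equal parts between its first and last center, the median log2 change at shared STUS hotspots was -0.03 in the first and -0.24 in the last, and the kept share 41.8 and 37.4%. The first held 20.6% of STUS heat in STUS/B6 and 22.7% in STUS/Hum, and the last 22.8 and 19.5%. Heat of all hotspots leaned the same way, with 20.4 and 22.0% in the first and 23.0 and 21.6% in the last. HUM and B6 heat differed less in the last (22.6 and 22.0%). At a distance of 10 kb, shared hotspots near to and far from a hotspot of the other allele had close medians. The 176 shared STUS hotspots within 10 kb of a HUM hotspot had a median change of -0.13 (quartiles -0.44 and 0.28) against -0.12 for the other 3391. The 181 within 10 kb of a B6 hotspot of STUS/B6 had -0.07 against -0.12 for 3386. The kept share was 40.6% near HUM (interval 36.1 to 45.3%) and 40.2% elsewhere. At 5 kb the medians lay further apart. The 73 shared STUS hotspots within 5 kb of a HUM hotspot had 0.002 (quartiles -0.29 and 0.42) against -0.12 for 3494. The 62 within 5 kb of a B6 hotspot had -0.01 (-0.49 and 0.30) against -0.12 for 3505.

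The same exchange of B6 for HUM was made in B6SPRTF1 hybrids (B6 mothers, SPRET/EiJ fathers; 1 DMC1 library each of B6/SPRT and Hum/SPRT), where the SPRT allele stayed. Of 9247 autosomal SPRT hotspots of B6/SPRT, 99.6% had a Hum/SPRT hotspot within 500 bp, 98.7% even among the weakest 10%, against 3.04% in the lowest bin for STUS. In B6/SPRT 27.6% of hotspots were unassigned and 7.70% of these had a partner, so the SPRT attribution there goes with being shared and the kept shares of the 2 hybrids cannot be compared. At shared SPRT hotspots the median log2 change was -0.09 (quartiles -0.31 and 0.12). It was -0.09 for the 4438 B6-cut and -0.10 for the 2197 matched, where STUS hotspots had -0.19 and -0.04. The difference between the hybrids was not tested.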

How the data were processed

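DMC1 SSDS of whole testis gave 1 library for each genotype. Hotspots were called without a prior list, attributed to a PRDM9 allele from other mice, and reads were given to homologs by SNPs. BWA and mm10 are named in the submitters' processing notes. The authors deposited, for each hotspot, a DMC1 signal whose scaling to depth is not stated and the B6 fraction of its reads without read numbers, so depth is unknown. Tables were matched to genotypes by the alleles and hotspot totals they hold. A further 20 columns of values in the 4 tables read (p-values, marks of sharing and H3K4me3 values) were not used.

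Shares, pairs and medians were computed with Python 3.11.15, pandas 2.3.3, numpy 2.4.6 and scipy 1.17.1, plotted with matplotlib 3.10.9, and tested on simulated data. Named by rule were the 5 strongest kept and 5 strongest not called STUS hotspots, the 4 largest increases and 4 largest decreases of share among shared STUS hotspots with summed signal at or above the median, the 4 strongest B6 and 4 strongest HUM hotspots, and the 4 HUM hotspots nearest to a B6 hotspot over 500 bp away, both above their allele's median. A motif search around every center was planned but not run, since no genome sequence was used here. The members, lists and classes were chosen with earlier results of these data known. The 8 strong STUS-cut hotspots and the sequences were chosen after their values were seen. Alternatives covered the pairing window, the denominator, classes, bins and the fold.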

Additional observations from a re-analysis of the deposited data

How the results depend on the processing

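With 1 library per genotype, no alternative leaves out a replicate, and replicate error is unknown. Of 41 recomputed values, 27 stayed within the main value's interval, the spread over autosomes or hotspots, 1.5 times a count, or 0.1 of a correlation. The 27 include the differences between hotspots near to and far from a HUM or B6 hotspot. For these the spread was 0.64, far above the differences themselves, so they could hardly leave it. Counting over STUS heat could not change them at all. The share of STUS hotspots kept was 38.4% with pairs within 250 bp, 42.9% among hotspots with a B6 fraction and 32.9% with a partner heat of at least 20. The median log2 change at shared STUS hotspots was -0.12 and, counted over heat at paired hotspots, -0.09. It was 0.23 when counted over STUS heat, since STUS held less of the listed heat of STUS/Hum. In that count 318 hotspots were 2-fold higher and 37 lower, in place of 145 and 172. With a fold of 1.5 these were 393 and 656. The share of B6 hotspots with a STUS/Hum hotspot at the position was 0.147% within 250 bp and 0.736% within 1000 bp, and that of HUM hotspots 0.190 and 1.12%, since the limit itself sets these counts. The correlation of B6 and HUM heat was 0.249 in bins of 1 Mb and 0.672 in bins of 10 Mb. For STUS heat in both libraries it was 0.884 and 0.762. Why the values differ with the size of the bins was not tested. The difference between shared STUS hotspots near to and far from a HUM hotspot changed sign with the distance. It was 0.12 at 5 kb, -0.01 at 10 kb and 0.02 at 50 kb. For a B6 hotspot it was 0.11 at 5 kb, 0.05 at 10 kb and -0.02 at 50 kb. The difference of 3.97 percentage points in kept share between matched and B6-cut hotspots stayed between 3.01 and 4.32. Their difference in median log2 change, 0.14, stayed between 0.10 and 0.21 under 3 alternatives added after seeing the data.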

Other observations

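Hotspots labelled KO in the tables, a label the sources used here do not explain, were few, 59 in STUS/B6 and 67 in STUS/Hum. Of the 59, 44 had a partner, all labelled KO, and their share of heat was at least 2-fold higher in STUS/Hum at 42 of the 44, against 6.53% of all shared hotspots. Their median share was 6.56 ppm in STUS/B6, below the lowest share listed in STUS/Hum, 14.2 ppm, so being listed there fixes a share at least 2-fold higher for a hotspot at that level, and nothing is read from the count.

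Unassigned hotspots of STUS/B6 had a partner at 153 of 2270 positions (6.74%, Wilson interval 5.78 to 7.85%). The 86 that met an unassigned hotspot had a median log2 change of 1.77 (quartiles -0.11 and 2.37), and the 67 that met a STUS hotspot -0.27.

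Of the 4729 HUM hotspots of STUS/Hum, 3179 (67.2%, interval 65.9 to 68.5%) had a HUM hotspot of Hum/SPRT within 500 bp, which is 70.9% of the 4485 HUM hotspots of that library. The median heat was 48.5 at those with such a partner and 23.2 at those with no hotspot there. Attribution compared hotspots between mice, so this overlap is partly set by it.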
